A study of Mus musculus with 11 samples.

Results

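Interferon-stimulated genes are the genes that cells switch on after interferons bind their receptors, and 39 of them were followed here in T cells of the inflamed mouse colon. The list was set by gene name: 38 of the 39 had a probe under that name on the array, with 68 probes between them, and Ifi44 was not analysed here. A probe was kept when its detection p, the chance of so bright a signal from a probe with no target, fell below 0.05 on 5 or more of 11 arrays. That left 49 probes of 30 genes, out of 18003 kept probes and 9139 kept genes on the whole array. The 30 are the members that passed this filter and do not stand for the full list.

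The cells, positive for TCRβ and CD4, were sorted by congenic markers out of colon lamina propria, a connective tissue under the gut lining. They came from Rag1-/- recipients, mice that make neither T nor B cells, given WT and Il23r-/- naive CD4 T cells together, so that cells of either genotype developed in the same recipients, which had colitis when the cells were taken. Total RNA of 6 WT and 5 Il23r-/- (knockout) samples, C57BL/6 per the labels, was hybridised to a 1-colour Illumina bead array. The labels give neither ages nor the recipient of each sample, so p-values reflect only how these samples vary, in part perhaps technically. The question put to the arrays is which genes in these cells change with loss of the interleukin 23 receptor. The single Il23r probe was above background on 0 of 11 arrays (WT 4.78 ± 0.11, SD, n = 6, and knockout 4.71 ± 0.08, SD, n = 5, in log2 units), so it gives no check of the genotype labels.

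Type I interferons signal through the kinases Jak1 and Tyk2 to a complex that holds Stat2 and Irf9 and binds the interferon-stimulated response element (ISRE) in promoters. Type II interferon, the Ifng product that T cells themselves secrete, signals through Jak1 and Jak2 and acts at the gamma-activated site (GAS). The genes switched on include sensors of foreign nucleic acid, transcription factors that pass the signal on, and effector proteins that block translation, degrade RNA or attack vacuoles that hold pathogens.

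The promoters show how closely these genes share such elements, and RefSeq windows of build GRCm38.p6, from 250 bases before to 50 bases after a gene's start, were searched on both strands. Windows were found for 31 of the 39 members, 40 windows in all, and none was used for Zbp1, Oas2, Mx1, Mx2, Usp18, Parp9, Parp14 and Rtp4. The ISRE core was searched as GAAA, any 2 bases and GAAA again, and the GAS as TTCNNNGAA, where N is any base. Of the 40 member windows 20 held the ISRE core (50.0%), against 1131 of all 32851 windows (3.44%). The GAS letters stood in 10 member windows (25.0%) against 2726 of all windows (8.3%). Among the 9506 windows of genes with a kept probe the shares were 3.17% and 7.11%. In the Bst2 window the letters of the motifs overlapped. A match describes the letters and is no proof of binding.

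**Figure D1:**
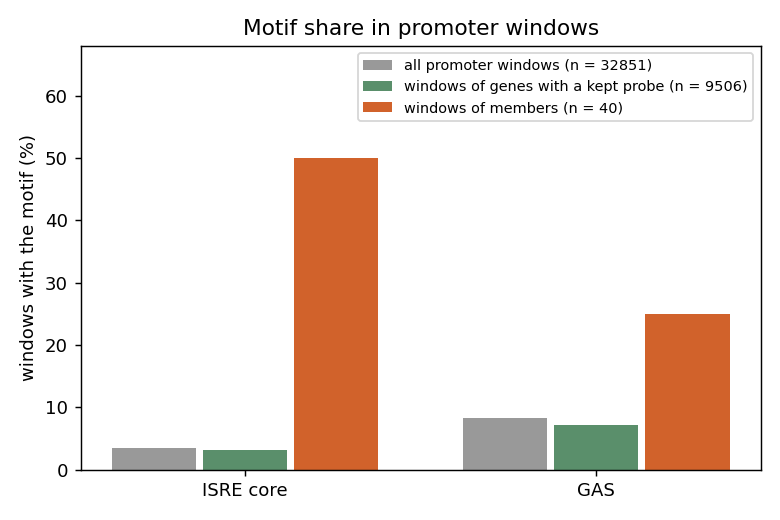
Share of promoter windows (vertical axis, %) that hold the ISRE core or the GAS letters, for all 32851 windows, the 9506 windows of genes with a kept probe and the 40 windows of the interferon-stimulated genes. The ISRE core stood in 50.0% of member windows and 3.44% of all windows, and the GAS letters in 25.0% and 8.3%.

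Windows of 6 genes are shown because these are among the 8 members with the smallest p between genotypes, with the matched motif letters in capitals, read 5′ to 3′ on the strand of the gene, where a match to the opposite strand appears as its reverse complement. Ifit1bl1 (chr19:34601919-34602218, minus strand, the first of its 2 windows) has an ISRE core whose first letter lies 104 bases upstream of the start. Trim30d (chr7:104507800-104508099, minus strand) has its match 41 bases upstream. Ifit3 (chr19:34583279-34583578, plus strand) has a pair of matches 156 and 122 bases upstream, and Gbp2 (chr3:142620413-142620712, plus strand) has its match 59 bases upstream. Igtp (chr11:58199306-58199605, plus strand) carries a GAS 45 bases upstream followed by an ISRE core 34 bases upstream. Irf1 (chr11:53769764-53770063, plus strand, the first of its 2 windows) has no ISRE core and a GAS 90 bases upstream.
Ifit1bl1: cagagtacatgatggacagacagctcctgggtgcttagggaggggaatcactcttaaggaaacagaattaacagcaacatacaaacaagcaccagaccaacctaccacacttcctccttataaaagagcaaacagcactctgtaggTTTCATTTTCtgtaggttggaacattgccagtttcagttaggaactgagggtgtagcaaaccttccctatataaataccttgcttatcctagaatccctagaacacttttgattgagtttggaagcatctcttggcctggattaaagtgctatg
Trim30d: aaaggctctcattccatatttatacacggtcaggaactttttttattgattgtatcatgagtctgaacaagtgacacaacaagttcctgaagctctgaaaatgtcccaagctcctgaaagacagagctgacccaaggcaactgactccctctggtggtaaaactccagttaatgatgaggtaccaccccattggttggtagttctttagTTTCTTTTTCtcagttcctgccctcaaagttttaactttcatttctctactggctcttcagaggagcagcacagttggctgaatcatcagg
Ifit3: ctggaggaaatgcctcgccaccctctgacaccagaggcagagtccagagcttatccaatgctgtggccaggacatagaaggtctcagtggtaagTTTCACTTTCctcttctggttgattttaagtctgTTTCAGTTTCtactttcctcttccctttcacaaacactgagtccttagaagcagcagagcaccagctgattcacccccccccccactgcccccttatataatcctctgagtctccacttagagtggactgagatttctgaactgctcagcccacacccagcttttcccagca
Gbp2: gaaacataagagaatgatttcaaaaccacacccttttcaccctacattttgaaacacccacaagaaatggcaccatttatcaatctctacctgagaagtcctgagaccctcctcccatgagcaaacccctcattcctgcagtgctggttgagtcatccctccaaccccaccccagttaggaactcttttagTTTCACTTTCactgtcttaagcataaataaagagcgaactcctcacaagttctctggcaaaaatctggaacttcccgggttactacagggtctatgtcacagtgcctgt
Igtp: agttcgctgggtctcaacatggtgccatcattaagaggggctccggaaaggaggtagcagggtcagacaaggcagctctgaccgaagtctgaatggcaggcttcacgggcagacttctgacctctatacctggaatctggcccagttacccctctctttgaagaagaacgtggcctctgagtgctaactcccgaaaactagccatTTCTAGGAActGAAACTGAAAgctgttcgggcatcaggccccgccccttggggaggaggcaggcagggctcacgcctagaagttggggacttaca
Irf1: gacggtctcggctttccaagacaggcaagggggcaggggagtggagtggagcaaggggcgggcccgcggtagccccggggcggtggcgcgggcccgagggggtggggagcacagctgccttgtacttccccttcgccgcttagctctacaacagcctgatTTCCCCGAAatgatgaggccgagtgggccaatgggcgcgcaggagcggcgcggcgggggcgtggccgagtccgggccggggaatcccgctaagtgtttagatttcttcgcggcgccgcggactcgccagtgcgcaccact

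The interferon-stimulated genes leaned toward higher levels in knockout cells, but few passed the test on their own. With each gene represented by its brightest kept probe, limma (Benjamini-Hochberg adjusted p under 0.05 over all 18003 probes) called 2 of the 30 genes higher in knockout cells, Ifit1bl1 and Trim30d, and 0 lower. Over all 9139 kept genes 1.27% were called higher and 0.667% lower (1.94% in either direction). At an unadjusted p under 0.05 the count was 10 of 30 higher (33.3%), against 10.0% of all genes, and 1 of 30 lower, against 7.95%. The median log2 fold change, knockout minus WT, was 0.16 over the 30 genes and 0.01 over all kept genes, and 26 of the 30 were above 0, against 51.1% of all genes. The list was chosen with earlier results of these data known, and its genes share arrays and vary together. These counts are therefore a description of the list and no test of it. In sorted bulk samples a change in the cells that make a transcript and a change in transcript per cell cannot be told apart.

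**Figure D2:**
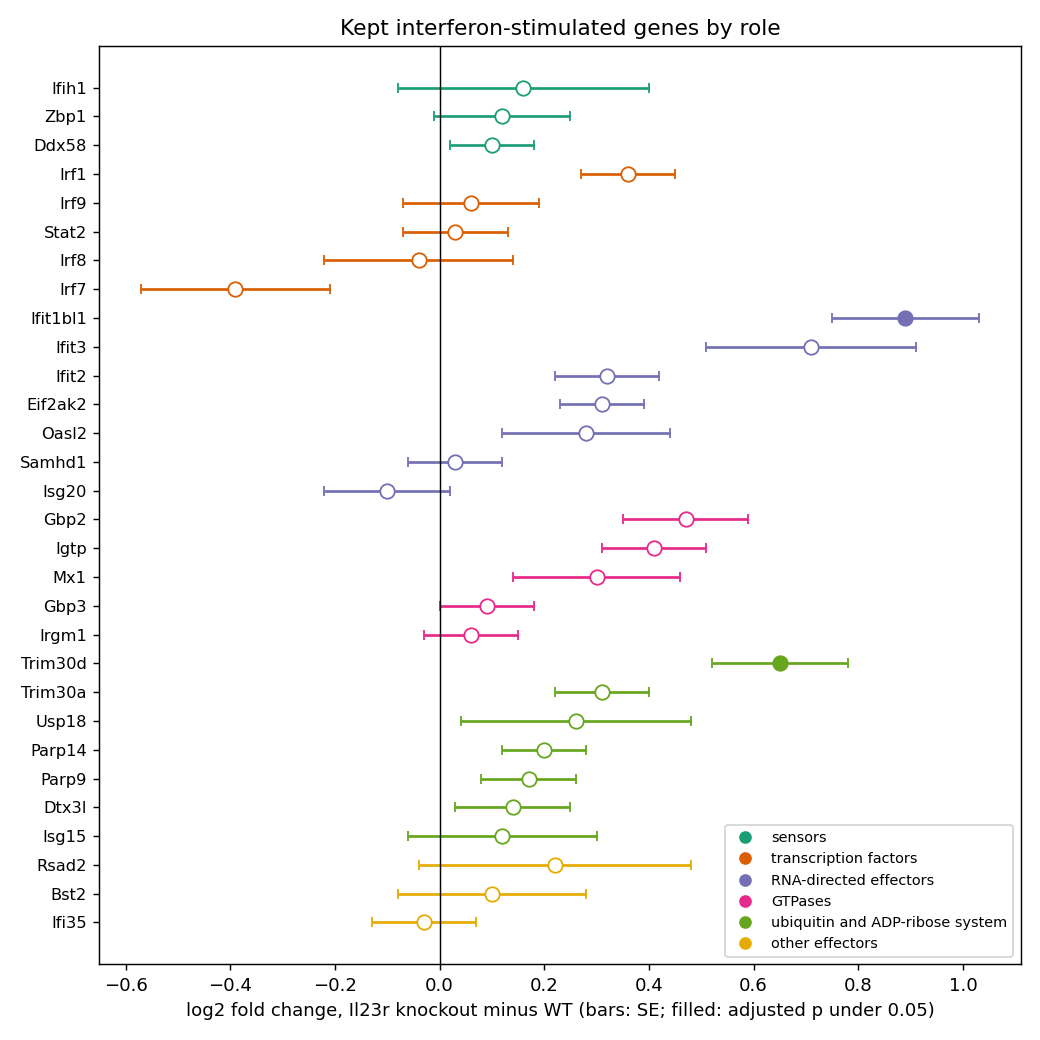
Log2 fold change (horizontal axis, knockout minus WT, 11 arrays, bars show the SE) of the 30 kept genes, grouped by role, with filled points at an adjusted p under 0.05. Ifit1bl1 (0.89) and Trim30d (0.65) are the filled points, and Irf7 (-0.39) lies farthest to the left.

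Among the sensors, which recognise foreign or misplaced nucleic acid, no probe was called. Ifih1 encodes MDA5, a sensor of long double-stranded RNA, and its probe was above background on 3 of 6 WT and 4 of 5 knockout arrays (log2 fold change 0.16 ± 0.24, SE, adjusted p = 0.765). Ddx58, which encodes the RNA sensor RIG-I, was at 0.10 and 0.20 on its 2 kept probes. Zbp1, a sensor of left-handed nucleic acid that can trigger cell death, ran from 8.02 to 8.63 on WT arrays with a median of 8.24. On knockout arrays 1 to 5 it was at 8.07, 8.45, 8.47, 8.21 and 8.73. The genotypes overlapped in Zbp1 (0.12 ± 0.13, SE, adjusted p = 0.669), and its second kept probe was at -0.06.

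The transcription factors split. Irf1, a factor induced directly by Ifng signalling that binds ISRE-like letters, ran from 13.45 to 13.86 on WT arrays (median 13.68) and was at 13.92, 14.08, 14.17, 13.96 and 14.07 on knockout arrays 1 to 5. On this probe, its brightest, every knockout array lay above every WT array, as in 2.27% of all genes with knockout higher. The difference of 0.36 ± 0.09 (SE) missed the threshold (adjusted p = 0.0662). The 5 kept probes of Irf1 ran from 0.20 to 0.36, and on the other kept probes the genotypes overlapped. With a trended and robust variance model or without background correction, Irf1 passed (adjusted p = 0.0145 and 0.0246). It passed in 2 of 9 other settings, where its adjusted p reached 0.31, and in 0 of 11 fits with an array left out.

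Irf7, the factor that amplifies type I interferon production, had the lowest fold change of the 30 genes. On WT arrays it ran from 7.81 to 8.84 with a median of 8.57, and on knockout arrays 1 to 5 it was at 7.57, 8.03, 8.44, 8.10 and 8.08. Arrays of the genotypes overlapped and the difference did not pass (-0.39 ± 0.18, SE, adjusted p = 0.28). Irf7 has a single probe here, and it stayed below 0 in each of the 11 fits that left out an array (-0.52 to -0.28).

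Irf9 and Stat2, partners in the complex that carries the type I signal, differed between genotypes by less than their error. For Irf9 the WT arrays ran from 10.52 to 11.21 (median 10.78), and the knockout arrays 1 to 5 were at 10.55, 10.83, 10.96, 10.77 and 11.18. For Stat2 the WT arrays ran from 7.18 to 7.70 (median 7.51), against 7.47, 7.65, 7.66, 7.30 and 7.50. Their log2 fold changes were 0.06 ± 0.13 (SE, adjusted p = 0.847) and 0.03 ± 0.10 (SE, adjusted p = 0.918) and the arrays overlapped. Irf8, a factor best known from myeloid cells and B cells, was at -0.04 ± 0.18 (SE, adjusted p = 0.934). The direction of Irf8 turned with equal array medians (0.02), so it has no settled sign.

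The effectors that act on RNA held the largest difference of the list. Ifit1bl1, an Ifit family gene whose relatives bind viral RNA and block its translation, ran from 6.93 to 7.74 on WT arrays with a median of 7.14. On knockout arrays 1 to 5 it was at 7.85, 8.21, 8.42, 7.95 and 8.11, so that all knockout arrays lay above all WT arrays. The mean rose from 7.21 ± 0.28 (SD, n = 6) to 8.11 ± 0.22 (SD, n = 5), a 1.86-fold difference (log2 0.89 ± 0.14, SE, limma adjusted p = 0.00612). The call held in each of 11 fits that left out an array (adjusted p at most 0.0204) and in 9 of 9 other settings (adjusted p at most 0.0411).

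The tested probes of other listed genes of that family did not pass. Ifit3, which stabilises Ifit1 on viral RNA in human cells, ran from 7.11 to 8.25 on WT arrays (median 7.57) and was at 7.89, 8.27, 8.65, 8.09 and 8.70 on the knockout arrays. The highest WT array overlapped with the lower knockout arrays, and the log2 fold change of 0.71 ± 0.20 (SE, adjusted p = 0.104) did not pass. Its second probe was at 0.49. With equal array medians Ifit3 passed (0.77, adjusted p = 0.0154), as it did with array weights (adjusted p = 0.0488). It passed in 3 of 9 other settings in all, where its adjusted p reached 0.193, and in 0 of 11 fits with an array left out.

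Ifit2, an Ifit protein tied to translation arrest and cell death, was above 0 on both kept probes, which fell on different sides of the threshold. Its tested probe was at 0.32 ± 0.10 (SE, adjusted p = 0.13) and did not pass. The second probe rose by 0.48 ± 0.11 (SE, adjusted p = 0.0434), from 7.51 to 8.13 on WT arrays to 8.21 to 8.57 on knockout arrays, with no overlap. Equal medians ended that call (adjusted p = 0.0769), as did 9 of the 11 fits with an array left out, where the adjusted p reached 0.113. The single Ifit1 probe was above background on 0 of the 11 arrays.

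Eif2ak2 encodes PKR, the kinase that halts translation on double-stranded RNA. Its values ran from 8.12 to 8.46 on WT arrays (median 8.30) and were 8.55, 8.57, 8.64, 8.67 and 8.49 on knockout arrays 1 to 5. The genotypes did not overlap, yet 0.31 ± 0.08 (SE, adjusted p = 0.0905) missed the threshold. Eif2ak2 passed in 1 of 11 fits with an array left out, that without WT sample 2 (adjusted p = 0.0471). It passed in 1 of 9 other settings, with array weights (adjusted p = 0.0488), and its adjusted p there reached 0.189. Isg20, an exonuclease that degrades RNA, was at -0.10 ± 0.12 (SE, adjusted p = 0.718). Samhd1, which depletes nucleotides that viruses need for DNA synthesis, was at 0.03 ± 0.09 (SE, adjusted p = 0.911). The 3 kept probes of Samhd1 ran from -0.26 to 0.03.

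The listed members of the oligoadenylate synthetase family, whose active enzymes switch on RNase L, were detected on some arrays or on none. Oasl2 was above background on 2 of 6 WT and 4 of 5 knockout arrays (0.28 ± 0.16, SE, adjusted p = 0.396). Oas1a, Oas2 and Oasl1 were above background on 0 of 11 arrays, and Oas3 on 3 WT arrays and 0 knockout arrays. The other members that failed the filter were Ifit1, Mx2 and Rtp4 (a chaperone of receptors), with Mx2 and Rtp4 above background on 1 knockout array each, and Xaf1, a promoter of apoptosis, on 0. In all 8 members with 13 probes failed. With the filter dropped 38 member genes were tested, and Ifit1bl1 and Trim30d were again the 2 called.

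Of the GTPases, proteins that coat or break open vacuoles and viral particles, 0 of 5 kept genes were called. At an unadjusted limma p under 0.05 there were 2 higher and 0 lower, against 10.0% and 7.95% of all genes. Gbp2, a guanylate-binding protein induced strongly by Ifng, ran from 12.27 to 12.48 on WT arrays (median 12.40) and was at 13.33, 12.88, 12.80, 12.56 and 12.70 on knockout arrays 1 to 5. All knockout arrays were above all WT arrays, with knockout array 1 highest. The difference was 0.47 ± 0.12 (SE, adjusted p = 0.0708), and the second kept probe was at 0.29, with the genotypes overlapping. Gbp2 passed without background correction, with the trended and robust model and with array weights (adjusted p = 0.0333, 0.0245 and 0.0467). Those were 3 of 9 other settings, in which its adjusted p reached 0.251, and it passed in 0 of 11 fits with an array left out.

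Igtp, an immunity-related GTPase also named Irgm3, ran from 11.93 to 12.32 on WT arrays (median 12.11) and was at 12.39, 12.49, 12.55, 12.29 and 12.83 on knockout arrays 1 to 5. Knockout array 4 fell just inside the WT range. The difference of 0.41 ± 0.10 (SE, adjusted p = 0.0718) passed in 5 of 9 other settings, in which its adjusted p ran from 0.0207 to 0.105. The lowest value came with array brightness as a covariate, a setting chosen after seeing the data. Igtp passed in 0 of 11 fits with an array left out. Its relative Irgm1, which protects T cells from Ifng-driven death in mice, spanned 13.85 to 14.04 on WT arrays (median 13.97) and was at 13.83, 13.92, 14.10, 14.04 and 14.21. The arrays overlapped (0.06 ± 0.09, SE, adjusted p = 0.759), and the 3 kept probes of Irgm1 ran from -0.36 to 0.20. Its tested probe lay below 0 on the authors' log2 values (-0.03).

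Gbp3, another guanylate-binding protein, was at 0.09 and 0.21 on its 2 kept probes. Mx1, a GTPase that traps viral capsids and carries a defective allele in most laboratory strains of mice, was above background on 5 of 6 WT and 5 of 5 knockout arrays. Its WT values ran from 5.25 to 6.21 (median 6.04), and the knockout values were 5.83, 6.15, 6.36, 6.31 and 6.41. The ranges overlapped (0.30 ± 0.16, SE, adjusted p = 0.348).

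The ubiquitin and ADP-ribose group held the second called gene. Trim30d, a mouse gene of the tripartite motif family, ran from 6.38 to 7.00 on WT arrays with a median of 6.63. On knockout arrays 1 to 5 it was at 7.06, 7.25, 7.60, 7.09 and 7.42, above every WT array. The mean rose from 6.63 ± 0.23 (SD, n = 6) to 7.28 ± 0.23 (SD, n = 5), a 1.57-fold difference (log2 0.65 ± 0.13, SE, limma adjusted p = 0.0223). The call was lost without WT sample 3 or 5 (adjusted p = 0.0543 and 0.0534) and without knockout sample 3 or 5 (adjusted p = 0.0577 and 0.0551). It held in 8 of 9 other settings and was lost with replicate number as a block in the fit (limma adjusted p = 0.0622).

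Trim30a, a close relative of Trim30d that restrains inflammatory signalling in mouse macrophages, ran from 10.64 to 10.97 on WT arrays (median 10.78) and was at 11.01, 11.09, 11.22, 11.11 and 11.09 on knockout arrays 1 to 5. The genotypes did not overlap, and 0.31 ± 0.09 (SE, adjusted p = 0.103) did not pass. Whether a probe of Trim30a or Trim30d also binds transcripts of other family members was not tested.

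Isg15, the ubiquitin-like protein that interferon-treated cells attach to other proteins, showed no shift beyond its spread. Its WT arrays ran from 9.23 to 10.01 (median 9.62), and the knockout arrays 1 to 5 were at 9.31, 9.71, 10.10, 9.50 and 10.26 (0.12 ± 0.18, SE, adjusted p = 0.773). Usp18, the protease that removes Isg15 and blocks the type I receptor, ran from 5.50 to 6.58 on WT arrays (median 6.02), against 5.77, 6.02, 6.80, 5.95 and 6.86. Knockout arrays 3 and 5 were high in Isg15 and Usp18 alike, the genotypes overlapped, and Usp18 did not pass (0.26 ± 0.22, SE, adjusted p = 0.577).

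Parp9 and Dtx3l encode partner proteins, an ADP-ribosyltransferase family member and an E3 ubiquitin ligase. Parp9 ran from 7.39 to 7.74 on WT arrays (median 7.54) and was at 7.67, 7.74, 7.91, 7.53 and 7.65 on the knockout arrays (0.17 ± 0.09, SE, adjusted p = 0.352). Dtx3l ran from 10.93 to 11.46 on WT arrays (median 11.33), against 11.49, 11.50, 11.58, 11.15 and 11.32 (0.14 ± 0.11, SE, adjusted p = 0.547). Neither separated the genotypes. Parp14, another ADP-ribosyltransferase, was at 0.20 ± 0.08 (SE, adjusted p = 0.223), and its 3 kept probes ran from -0.13 to 0.27.

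Of the remaining effectors 3 were kept and 0 called. Rsad2 encodes viperin, an enzyme that makes a chain-terminating nucleotide, and was at 0.22 ± 0.26 (SE, adjusted p = 0.705). Bst2, the tether of budding virions and in mice a surface marker of plasmacytoid dendritic cells, was at 0.10 ± 0.18 (SE, adjusted p = 0.799). Ifi35, which takes part in innate signalling, was at -0.03 ± 0.10 (SE, adjusted p = 0.893), and its sign turned with equal medians (0.03).

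**Figure D3:**
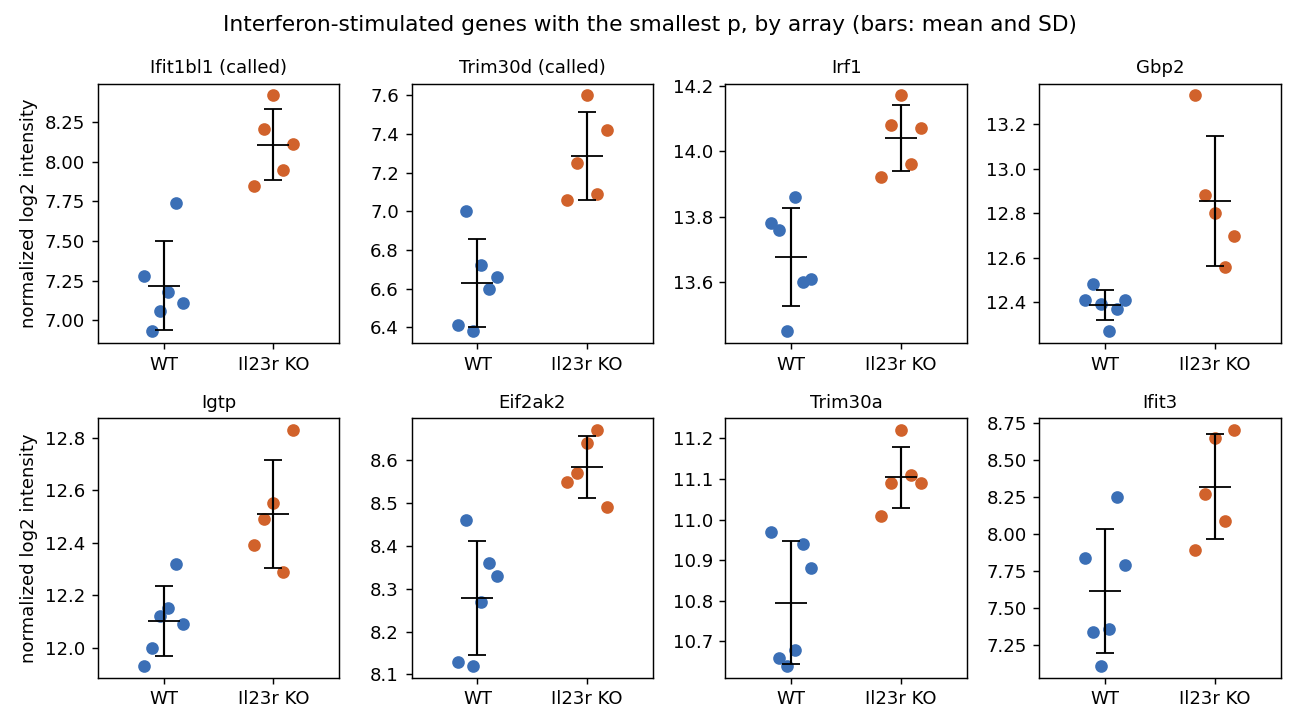
Normalized log2 intensity (vertical axes, a separate range for each gene) on each of 6 WT and 5 Il23r knockout (KO) arrays for the 8 members with the smallest p, with bars at the mean and SD. The genotypes do not overlap for Ifit1bl1, Trim30d, Irf1, Gbp2, Eif2ak2 and Trim30a, and overlap for Igtp and Ifit3.

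On the brightest kept probe of each gene, every knockout array lay above every WT array for 6 of the 30 kept genes (20.0%), against 2.27% of all kept genes. For 0 genes the reverse held, against 1.31%. The 6 were Ifit1bl1, Trim30d, Irf1, Gbp2, Eif2ak2 and Trim30a. Their folds were small: 1.86 for Ifit1bl1 and 1.57 for Trim30d, but 1.38 for Gbp2, 1.28 for Irf1 and 1.24 for Eif2ak2 and for Trim30a. On the other kept probes of Irf1 and Gbp2 the genotypes overlapped, whereas on the second probes of Ifit2 and Gbp3 they did not. The count of 6 too is a description, since the list was chosen with earlier results of these data known.

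Genes upstream of this response, from interferons to receptors, kinases and restraints, and further interferon-induced genes were measured as 64 kept genes. Of these 1 was called higher and 0 lower, against 1.27% and 0.667% of all kept genes, so the count was near the share over the whole array. Ifng, the interferon of type 1 T cells, was at 0.29 ± 0.10 (SE, adjusted p = 0.178), from 13.36 ± 0.15 (SD, n = 6) to 13.65 ± 0.19 (SD, n = 5). Among type I interferons, Ifna1 had a probe above the filter (0.16, adjusted p = 0.486), and the Ifnb1 probe was above background on 0 arrays. The called gene was Il10rb (0.37 ± 0.09, SE, adjusted p = 0.0475), a receptor chain shared by interferon lambda and interleukin 10, and it lost the call in 9 of 11 fits that left out an array.

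Receptor genes for type I and type II interferon were not called. Ifngr1, the ligand-binding chain for Ifng, was at -0.01 ± 0.07 (SE, adjusted p = 0.95), Ifngr2 at 0.01 and the type I chain gene Ifnar2 at 0.15. The Ifnar1 probe was above background on 0 arrays. Of the kinases, Jak1 was at -0.30 ± 0.15 (SE, adjusted p = 0.325), with its other kept probes at -0.07 and 0.23, Jak2 at -0.20 and Tyk2 at 0.05. Irf3, the factor activated by nucleic acid sensors, was at 0.33 ± 0.09 (SE, adjusted p = 0.09), with its other kept probes at 0.05 and 0.11. Ticam1, an adaptor of Toll-like receptors, was at -0.35. Dhx58, a regulator of RNA sensing, was at 0.32. Mb21d1, the DNA sensor cGAS, was at 0.18, with its other kept probe at -0.16. Among restraints Socs1, a feedback inhibitor of Jak kinases, was at 0.16 and Irf2, an antagonist of Irf1, at 0.22 (adjusted p = 0.237).

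Of 39 further interferon-induced genes 0 were called on their brightest probe, and their median was 0.07. Uba7, the enzyme that activates Isg15, was at 0.35 ± 0.09 (SE, adjusted p = 0.0671), Rnf213 at 0.67 ± 0.17 (SE, adjusted p = 0.0767) with its probe above background on 1 WT and 4 knockout arrays, Slfn1 at 0.35 and the Fc receptor and ligase gene Trim21 at 0.31. Cxcl10, a chemokine gene induced by Ifng, had probes on different sides of the threshold. Its tested probe was at 0.59 ± 0.22 (SE, adjusted p = 0.186), and the second rose by 0.72 ± 0.13 (SE, adjusted p = 0.0151). The second probe ran from 8.08 to 8.68 on knockout arrays and reached at most 7.79 on WT arrays.

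Most pairs of the 30 genes were positively correlated across arrays. Over the 435 pairs of members the median Pearson r across the 11 arrays was 0.32 and 77.2% of pairs were above 0, against 0.01 and 51.3% over all pairs of kept genes. With values centred on each genotype, the medians were 0.20 and 0.02. These are descriptions over pairs that share genes, arrays and a common normalization. Ifit3 had the highest median r with the 29 other genes (0.61), followed by Igtp (0.51) and Ifit1bl1 (0.50), whereas for Irf7 the count of genes with r above 0 was 14 and Bst2 was at -0.13.

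**Figure D4:**
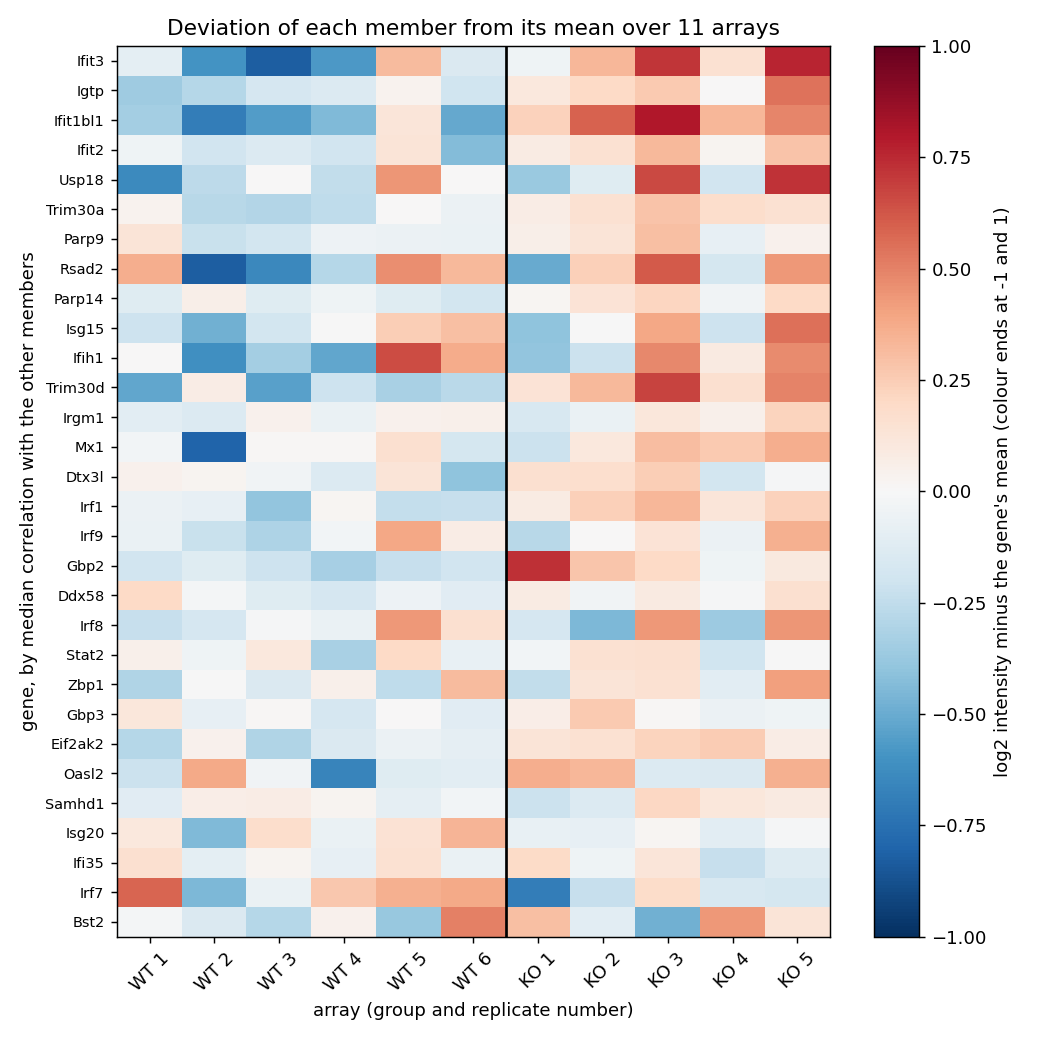
Deviation of each of the 30 genes from its own mean over 11 arrays (colour, log2 units, red above and blue below), with WT arrays left of the line and knockout (KO) arrays right, and genes ordered by their median correlation with the other members. On knockout array 3 28 genes were above their mean and on knockout array 5 25, against 6 on WT arrays 2 and 4.

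Arrays of 1 genotype differed widely from each other. Knockout array 3 had 28 of the 30 genes above their own mean, knockout array 5 had 25 and knockout array 4 had 13. In WT, array 5 had 19 genes above their mean, and arrays 2 and 4 had 6 each. Averaged over the 30 genes, the deviation ran from -0.22 (array 2) to 0.08 (array 5) in WT and from -0.03 (array 1) to 0.27 (array 3) in knockout cells, so that the genotypes overlapped.

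Array brightness moved with some of these genes. The median raw intensity ran from 107.6 to 176.7 over the 11 arrays, and across arrays its log2 had an r of -0.81 with Irgm1, -0.76 with Irf8, -0.75 with Isg15 and -0.72 with Usp18, but of -0.03 with Ifit1bl1 and 0.05 with Trim30d. With brightness as a covariate, a setting chosen after seeing the data, 4 member genes were called, Ifit1bl1, Trim30d, Ifit3 (0.79, adjusted p = 0.0405) and Igtp (0.45, adjusted p = 0.0207). With its linear effect removed, the median r over member pairs was 0.40.

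Single pairs with a known link were tested on their own. Of 8 pairs 6 were measured, and 0 passed after Benjamini-Hochberg adjustment over the 6 (two-sided permutation test, 100000 resamples, n = 11 arrays); at an unadjusted p under 0.05 there was 1 by Pearson's r. That pair was Igtp with Irgm1 (r = 0.61, permutation p = 0.0469, adjusted p = 0.173, rho = 0.45, permutation p = 0.163). Without the 2 arrays farthest from the median of Igtp, r was 0.21. Leaving out the most extreme arrays narrows the range and tends to lower r, so this drop does not show what the relation rested on. Centred on genotype r was 0.68 (permutation p = 0.0438, adjusted p = 0.131). With the linear effect of array brightness removed it was 0.74 (permutation p = 0.0088, adjusted p = 0.0528). By Spearman's rho the pairs with an unadjusted p under 0.05 were Parp9 with Dtx3l and Irf1 with Gbp2. Parp9 with Dtx3l gave r = 0.54 (permutation p = 0.0864, adjusted p = 0.173) and rho = 0.67 (permutation p = 0.0279, adjusted p = 0.0837), and r = 0.35 without the 2 farthest arrays.

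For Irf1 with its target Gbp2 the pooled r was 0.58 (permutation p = 0.0606, adjusted p = 0.173) and rho 0.75 (permutation p = 0.011, adjusted p = 0.0659). Centred on each genotype the r was -0.24 (permutation p = 0.448, adjusted p = 0.461), and without the 2 farthest arrays the pooled r was 0.54. Irf7 with Ifit3 went the other way: r was 0.04 pooled (permutation p = 0.91, adjusted p = 0.91, rho = -0.12, permutation p = 0.733) and 0.69 centred on genotype (permutation p = 0.0291, adjusted p = 0.131), and 0.07 pooled without the 2 farthest arrays. Irf7 with Usp18 gave r = 0.08 (permutation p = 0.815, adjusted p = 0.91, rho = 0.14, permutation p = 0.693) and r = 0.26 without the 2 farthest. Irf9 with Stat2 gave r = 0.27 (permutation p = 0.428, adjusted p = 0.642, rho = 0.33, permutation p = 0.329) and r = 0.02 without them. With equal array medians 2 pairs passed, Parp9 with Dtx3l (r = 0.76) and Irf1 with Gbp2 (r = 0.73), each at a permutation adjusted p of 0.0187. Without knockout sample 1 the pairs that passed were Irf1 with Gbp2 (r = 0.79) and Igtp with Irgm1 (r = 0.75), each at a permutation adjusted p of 0.035.

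Markers of other cells were measured beside the list. The 9 T cell genes kept, led by Thy1, Cd3g and Cd3d, had a median log2 fold change of -0.03 with 0 called. Of 13 myeloid markers on the array 10 were kept, all 10 were above 0 with 0 called, and their median was 0.28, with Lyz1 at 0.44, Cd74 at 0.23 and H2-Aa at 0.29. The raw intensity summed over all 13, kept or not, ran from 4682 to 10918 on WT arrays and from 5953 to 11776 on knockout arrays. The median sum was 6370 in WT and 9072 in knockout cells. The mean normalized log2 value of the kept myeloid markers had a median of 7.92 over WT arrays (7.30 to 8.83) and of 8.22 over knockout arrays (8.07 to 8.49). The part of myeloid RNA in the genotype differences was not tested. Plasmacytoid dendritic markers had 3 of 5 genes kept, Tcf4, Siglech and Pacsin1 (-0.37, -0.12 and 0.26), B cell markers 1 of 5 (Cd79b) and natural killer markers 1 of 2 (Klrb1c). Epithelial markers had 3 of 6 kept, Cdh1 (0.82), Krt8 (-0.21) and Krt18 (-0.75), stromal markers 2 of 6, Pecam1 (-0.13) and Dcn (-0.59), and CD8 T cell markers 1 of 2, Cd8b1 (-0.18 on its tested probe and 0.52 on its other kept probe), with 0 called.

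Over all 18003 probes limma called 320 (1.78%), of which 65.6% were higher in knockout cells, and with equal array medians 77.4% of 257 calls were higher. Each array had 17309 to 18440 probes above background; precision is limited by the number of arrays.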

How the data were processed

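Probe intensities on a linear scale were deposited by the authors, and per the submitters' processing notes they come from GenomeStudio 1.6.0; further steps were not stated. The same deposited table holds a detection score from 0 to 1 for each probe. Although headed as a p, it rose with intensity (Spearman rho across probes at least 0.984), so it was read as 1 minus p. The second table holds log2 values deposited by the authors, which matched log2 intensity less the 75th percentile of each array. Its probe names were joined to the intensity rows by their 11 values, and probes were named by GEO's platform annotation (34885 probes with 1 symbol, 18 with several, 10378 not listed).

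Intensities were corrected and normalized with neqc of limma 3.58.1 (R 4.3.3; normexp, with background estimated through the detection p, an offset of 16 and quantile scaling), which shrinks fold changes of dim probes. Genotypes were compared by lmFit and eBayes with genotype as the single term, two-sided, Benjamini-Hochberg adjusted over 18003 kept probes. The fit was tested on simulated data with noise independent between probes, which does not cover genes that vary together across arrays. The members and lists were chosen with earlier results of these data known. All members are named; array values are given for the 8 with the smallest p and for fixed factors and pairs. Of pathway lists fixed genes and up to 4 with the smallest p are named, and of markers the 3 brightest; The second probes of Ifit2 and Cxcl10 and the 6 promoters shown were chosen after their values were seen. Alternatives were background correction, scaling, the authors' values, filters, variance model, weights, a block, thresholds and left-out arrays.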

Additional observations from a re-analysis of the deposited data

Results flagged for a closer look

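On WT array 2 the Mx1 probe stood at 5.25 in log2 units, below the other 5 WT arrays, which lay between 5.87 and 6.21. Its gap to the nearest array was 0.641 of the group's range, just past Dixon's critical value for 6 samples. It was the 1 such group among 60 checked (30 genes in each genotype), and chance gives about 1 in 20.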

How the results depend on the processing

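The median log2 fold change of the members stayed above 0 in each alternative run (0.09 to 0.22), and Ifit1bl1 stayed called in each. Of 18003 probes 320, of the member genes 2 and of the pathway genes 1 were called. With array brightness as a covariate, chosen after seeing the data, the counts were 512, 4 and 2. With array weights 6 member and 4 pathway genes were called, and without background correction, as with a trended and robust variance, 5 and 3. Without the detection filter 210 probes, 2 member genes and 0 pathway genes were called, where more probes were tested. At an adjusted p under 0.1 the counts were 649, 6 and 4. With the replicate block 264 probes, 1 member gene and 0 pathway genes were called, Trim30d being lost (0.66, adjusted p = 0.0622). The labels do not say that a replicate number marks a shared recipient, and deviations of same-numbered samples correlated at -0.0134 to 0.257, above 0.1 in 3 of 5 pairs, and not every sample correlated best with its own number. The numbers were therefore not taken as pairs. Median raw intensity nevertheless tended to fall with replicate number in both genotypes. It was 165.3 (WT) and 176.7 (knockout) at number 1, and 107.6 (WT) and 117.5 (knockout) at number 5. Whether same-numbered samples share a recipient or a slide was not tested, and the correlations cannot exclude it. Leaving out 1 array gave 159 (without WT sample 5) to 513 (without WT sample 2) probes, 1 to 3 member genes, 0 to 2 pathway genes and 0 to 2 passing pairs, against 0 pairs with all arrays and 2 with equal medians. For the other causes, the cause was not tested.

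Signs turned only for members that were not called. Irf8 (-0.04) was at 0.06 with brightness as a covariate, at 0.02 with equal medians and at -0.16 to 0.07 over fits leaving out 1 array. On the authors' values Samhd1 was at -0.0049 and Irgm1 at -0.03, and with equal medians Ifi35 was at 0.03. Over fits leaving out 1 array Irf9 ran from -0.02 to 0.14, Stat2 from -0.04 to 0.08, Samhd1 from -0.02 to 0.08, Isg15 from -0.0017 to 0.24 and Ifi35 from -0.08 to 0.02. The number of arrays and the offset, which shrinks dim probes, limit what can be told of members near background such as Ifih1, Oasl2, Mx1 and Usp18.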
